A study of Rattus norvegicus and Heterocephalus glaber with 6 samples.

Results

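The genes described here are 10 effectors that cells switch on when oxygen is short: Vegfa, Adm, Epo, Bnip3, Bnip3l, Ankrd37, Ndrg1, Ddit4, P4ha1 and P4ha2. They were picked by symbol, and each matched 1 of the 22549 rows of the rat tables, whereas 0 of the 10 matched any of the 734 rows of the naked mole rat tables as used here. The libraries come from polyadenylated liver RNA of rats and of naked mole rats kept in 8% oxygen for 8 hours, with 3 libraries per species. Strain, age and sex are not stated in the labels. Both species had the same exposure, so with no member in the naked mole rat tables the data allow a description of level and of order among the 3 rat libraries, called rat 1, rat 2 and rat 3, and no test of an effect of oxygen. The labels call them replicates without saying that each is a separate animal, so differences between them may be partly technical.

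When oxygen falls, the prolyl hydroxylases that mark the alpha subunits of the hypoxia-inducible factors (HIF) for destruction lose activity. The stabilised subunits pair with ARNT and bind short DNA elements with the core ACGTG or GCGTG near their target genes. The effectors serve different ends: VEGF-A, adrenomedullin and erythropoietin are secreted signals for vessels and red cell production, BNIP3 and BNIP3L sit on mitochondria and mark them for removal, DDIT4 (REDD1) restrains mTORC1, and the P4HA subunits hydroxylate collagen prolines. ANKRD37 is an ankyrin repeat protein and NDRG1 a stress-responsive cytosolic protein. In the liver, hepatocytes and stellate cells are known sites of erythropoietin synthesis outside the kidney.

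The 4 member promoters that hold ACGTG are shown because their genes take different orders among the rats, as described further on. Each line is the 250 bases before a start site, 5′ to 3′ on the gene's strand, from RefSeq on GRCr8, with ACGTG (read on either strand) in capitals. Bnip3 (chr1:203154963-203155212, minus strand), P4ha2 (chr10:38743644-38743893, plus strand), Ankrd37 (chr16:53001257-53001506, plus strand) and Ddit4 (chr20:28437038-28437287, minus strand) follow in that order.
Bnip3: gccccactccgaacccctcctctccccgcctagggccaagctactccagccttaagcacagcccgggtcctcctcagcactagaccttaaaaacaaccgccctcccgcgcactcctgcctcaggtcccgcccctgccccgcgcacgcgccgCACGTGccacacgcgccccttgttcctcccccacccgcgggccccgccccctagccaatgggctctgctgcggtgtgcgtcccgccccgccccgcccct
P4ha2: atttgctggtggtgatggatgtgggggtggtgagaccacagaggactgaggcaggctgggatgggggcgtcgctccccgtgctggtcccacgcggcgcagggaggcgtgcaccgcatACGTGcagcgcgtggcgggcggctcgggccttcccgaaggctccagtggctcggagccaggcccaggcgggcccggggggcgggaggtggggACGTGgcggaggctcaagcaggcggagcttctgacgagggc
Ankrd37: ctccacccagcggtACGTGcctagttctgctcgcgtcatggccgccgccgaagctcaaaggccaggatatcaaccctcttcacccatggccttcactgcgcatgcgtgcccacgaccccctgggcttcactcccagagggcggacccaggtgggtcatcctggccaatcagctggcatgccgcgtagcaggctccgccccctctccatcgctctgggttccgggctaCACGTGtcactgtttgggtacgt
Ddit4: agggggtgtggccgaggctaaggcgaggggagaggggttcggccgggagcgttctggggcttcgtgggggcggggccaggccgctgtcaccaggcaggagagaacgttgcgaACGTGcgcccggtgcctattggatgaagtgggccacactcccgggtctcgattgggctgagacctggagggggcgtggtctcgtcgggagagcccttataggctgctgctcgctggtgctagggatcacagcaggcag

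The RefSeq table gave windows for 8 of the 10 members, all but Bnip3l and Ndrg1, with 9 windows in all because Vegfa has a second start site. ACGTG stood in a window of 4 of these 8 members, against 18.1% of all 27457 genes with a window. Ankrd37 and P4ha2 had it at 2 separate sites, which 2.30% of all genes do. In Ankrd37 and Bnip3 1 site was the palindrome CACGTG, where the reading on each strand overlaps the other; it was counted once. That site lay 99 to 94 bases before the start in Bnip3 and 23 to 18 bases before it in Ankrd37. The sites of P4ha2 began 133 and 41 bases before the start, and that of Ddit4 138 bases before it. The other core, GCGTG on either strand, stood in 6 members, Epo and P4ha1 in addition to these 4, and in 28.4% of all genes with a window. Adm and Vegfa had neither core in these 250 bases. A match describes letters and is not a binding site, and a window without one says nothing about elements farther away.

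The rat values are FPKM, fragments scaled by transcript length and by library size, so that levels can be set side by side between genes. FPKM sums over rows usable in all libraries were 527133 to 531399, and 9866 to 10036 rows reached 1 FPKM. Absolute depth is unknown. From the step between values under 0.1 FPKM, rat 1 was sequenced 1.05 times as deeply as rat 2 and 0.983 times as deeply as rat 3. Hepatocyte markers summed to 20457 to 23122 FPKM over 8 genes, without albumin, whose value was unusable in rat 1 and rat 2. Most genes read slightly lower in rat 1 than in rat 2: the median-ratio factor of rat 2 was 0.12 above that of rat 1 on the log2 scale. Of 9994 rows averaging at least 1 FPKM, 48.5% were lowest in rat 1, 22.6% in rat 2 and 28.9% in rat 3.

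Levels ran from Vegfa at the top to Epo at the bottom. Means were at least 10 FPKM for 4 members (Vegfa, Bnip3, Bnip3l and P4ha2) and between 1 and 10 for another 4 (Ankrd37, Ddit4, Adm and Ndrg1). Epo lay under 1 FPKM and P4ha1 was listed at 0. The order of neighbours was clear of the spread in 3 places: the ranges over libraries did not overlap between Vegfa and Bnip3, between P4ha2 and Ankrd37, or between Ndrg1 and Epo. Elsewhere they overlapped, and Adm exceeded Ndrg1 in only 1 of 3 libraries. Bnip3 exceeded Bnip3l, Bnip3l exceeded P4ha2 and Ddit4 exceeded Adm in each of the 3 libraries although their ranges overlapped.

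**Figure D1:**
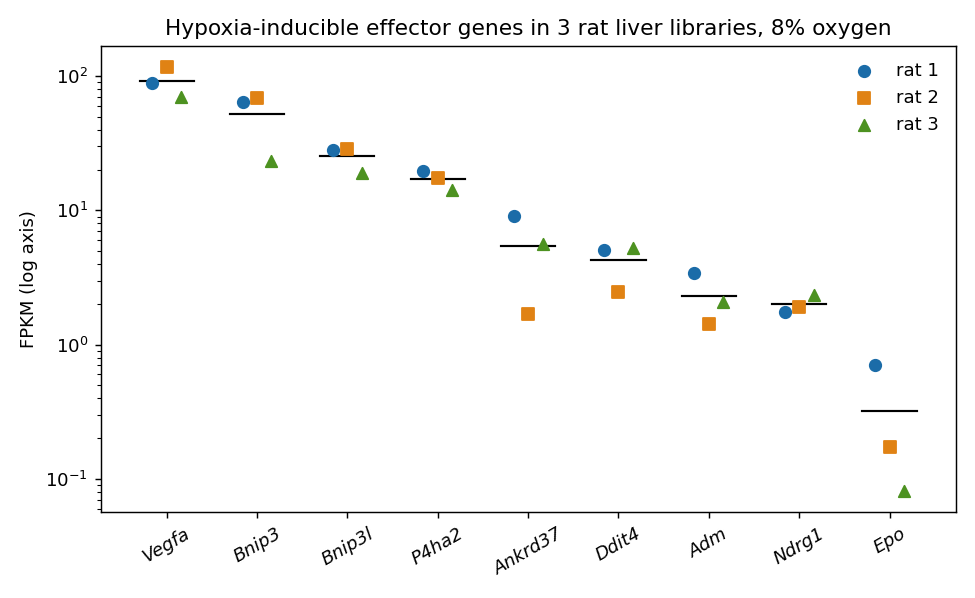
FPKM (log axis) of the 9 effector genes above 0 in each of the 3 rat libraries; each symbol is 1 library and the bar is the mean. Vegfa sits highest at a mean of 91.9 FPKM and Epo lowest at 0.320, and Bnip3, Ankrd37 and Epo spread most on the log axis.

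Among the secreted signals, Vegfa, the main angiogenic ligand, stood at 88.6 FPKM (rat 1), 116.8 FPKM (rat 2) and 70.2 FPKM (rat 3). The mean was 91.9 ± 23.5 (SD, n = 3), above 96.8% of all rat rows with usable values. Rat 2 was 1.66 times rat 3, and rat 1 lay between them. The row spans chromosome 9 from 10520729 to 10536071 in the deposited tables, whose genome build is not given in the sources used here, and it is the only member row with 2 start-site identifiers. The row sums over isoforms, so VEGF-A splice forms are not resolved.

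Its relatives were far lower. Vegfb, a related ligand, was at 2.34, 4.31 and 2.79 FPKM in rat 1, rat 2 and rat 3, so Vegfa exceeded it 25.2-fold to 37.8-fold within a library. Of 8 VEGF ligand and receptor genes with a row, 6 reached a mean of 1 FPKM and 0 reached 10. Flt4, a receptor for VEGF-C, was the most abundant at 3.92 ± 0.265 (SD, n = 3). Flt1, a receptor that binds VEGF-A, had the order of Vegfa itself, with 3.42, 4.50 and 2.46 FPKM. The largest ratio of highest to lowest library among the 6 was 2.02 for Nrp2, a co-receptor, at 0.899, 1.49 and 1.81. Kdr, the principal signalling receptor, had no row under that symbol in the tables as used here.

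Adm encodes adrenomedullin, a vasodilator peptide. It stood at 3.41 FPKM (rat 1), 1.42 FPKM (rat 2) and 2.06 FPKM (rat 3), with a mean of 2.30 ± 1.02 (SD, n = 3), on chromosome 1 from 168380254 to 168382426. Rat 1 was 2.40 times rat 2. Among the genes of its receptor, Calcrl, the receptor itself, was at 2.42, 2.83 and 3.09 FPKM, and Ramp2, the partner that makes it an adrenomedullin receptor, at 10.1, 10.4 and 11.7. Ramp3, the alternative partner, was under 1 FPKM in each library, at 0.0949, 0 and 0.327. Pam, which amidates the peptide, was at 9.49, 9.29 and 8.94. Adrenomedullin is made by endothelium among other cells. The 6 sinusoidal endothelial markers with a row summed to 92.9, 88.4 and 86.9 FPKM in rat 1, rat 2 and rat 3, a range of 1.07-fold. They differed in order. Stab2 (7.54, 6.38 and 6.61) and Clec4g (10.7, 7.72 and 9.80) had the order of Adm. Lyve1 was also highest in rat 1, Pecam1 and Fcgr2b were highest in rat 2, and Cdh5 was highest in rat 3. Their part in the Adm values was not tested. In whole tissue, fewer cells of a type and less RNA per cell cannot be told apart.

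Epo, the hormone that drives red cell production, was listed at 0.704 FPKM (rat 1), 0.174 FPKM (rat 2) and 0.0815 FPKM (rat 3), on chromosome 12 from 19551767 to 19555208. Rat 1 was 4.05 times rat 2 and 8.64 times rat 3, the widest ratio of any member, at a level under 1 FPKM. The bounds in the authors' deposited table were 0.399 to 1.02 for rat 1, 0.0380 to 0.304 for rat 2 and 0 to 0.178 for rat 3. Rat 1 was therefore above the bounds of both others, while rat 2 and rat 3 overlapped. Such bounds hold only loosely here, since 10.3% to 10.9% of the rat values above 0 lay outside their own bounds, among them 2 of the 27 member values, Bnip3 in rat 1 and in rat 2.

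The receptor of the hormone, Epor, was at 0.0313, 0.131 and 0.154 FPKM, under 1 FPKM in each library. Of 10 genes of erythropoietin signalling with a row, 6 reached 1 FPKM. Stat5b, a transcription factor downstream of the receptor, stood at 9.45 ± 0.624 (SD, n = 3). Hamp, which encodes the iron hormone hepcidin and is repressed when erythropoiesis is stimulated, was the most abundant and had the largest ratio, 6.49, with rat 1 highest and rat 2 lowest. Epo shared the highest library with it but was lowest in rat 3. Blood cell transcripts also differed between the libraries: the erythroid markers Hbb and Slc4a1 summed to 55.0 FPKM (rat 1), 359 FPKM (rat 2) and 349 FPKM (rat 3). The neutrophil markers, 4 with a row, summed to 2.23, 7.80 and 10.1, with Elane at 0 in all. Both sums were lowest in rat 1, the library with the highest Epo, Adm and Ankrd37, and their part in those values was not tested.

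The mitochondrial pair shared an order. Bnip3, a mitophagy receptor of the outer membrane, stood at 64.6 FPKM (rat 1), 68.8 FPKM (rat 2) and 23.4 FPKM (rat 3), a mean of 52.3 ± 25.1 (SD, n = 3). Rat 3 was the low library, and rat 2 was 2.93 times rat 3. Its row covers chromosome 1 from 198683008 to 198700075. Bnip3l, the homologue also called Nix, was at 28.3, 28.8 and 19.1, a mean of 25.4 ± 5.45 (SD, n = 3), on chromosome 15 from 46516625 to 46539756. Rat 3 was again lowest, with rat 2 at 1.51 times rat 3. Within a library Bnip3 was 2.29 times Bnip3l in rat 1, 2.39 times in rat 2 and 1.23 times in rat 3, a ratio that no scaling of whole libraries can alter. RefSeq on GRCr8 lists 8 pseudogenes of Bnip3, 1 of Bnip3l and 1 of Ankrd37, which can share reads with the genes, so these values are uncertain.

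Of 17 genes with a row among BNIP3 partners and mitophagy genes, 16 reached 1 FPKM and 12 reached 10. Map1lc3b and Sqstm1, an LC3 protein of the autophagosome membrane and a cargo receptor, led at 260 ± 79.0 and 227 ± 18.4 (SD, n = 3). Their order was not that of Bnip3 in each case: Map1lc3b was at 351, 222 and 208 FPKM. Gabarapl1, a relative of LC3 picked once its values were known, stood at 114.9, 113.4 and 76.6 FPKM, with rat 3 low. Bcl2l13, another mitophagy receptor, had the largest ratio among the 16, 1.81, at 3.52, 3.30 and 1.95. Of the 16, 8 were lowest in rat 3, beside 28.9% of all rows, and 0 had a highest library at least 2 times the lowest, near the 6.01% of all rows.

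P4ha2, a catalytic subunit of collagen prolyl 4-hydroxylase, stood at 19.6 FPKM (rat 1), 17.5 FPKM (rat 2) and 14.2 FPKM (rat 3), with a mean of 17.1 ± 2.74 (SD, n = 3), on chromosome 10 from 39522156 to 39551063. Rat 1 was 1.38 times rat 3. P4hb, protein disulfide isomerase, which is also the other subunit of that enzyme, was the most abundant gene of the collagen list at 367, 402 and 509 FPKM, highest where P4ha2 was lowest. The ratio of P4hb to P4ha2 was 18.7, 23.0 and 36.0 in rat 1, rat 2 and rat 3. Ppib, a cyclophilin of collagen folding, came next at 123 ± 20.9 (SD, n = 3). Among the 16 genes of this list at 1 FPKM, Col1a1, a chain of type I collagen, had the largest ratio, 2.80, at 1.94, 0.695 and 1.35 FPKM. Of these 16, 3 were lowest in rat 3 and 9 in rat 2, beside 28.9% and 22.6% of all rows.

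P4ha1, the other widely expressed catalytic subunit, was listed at 0 in the 3 rat libraries. Its row lies on Un|NW_047852.1 from 176834 to 226485, sequence outside the assembled chromosomes. Of 831 such rows, 0 were above 0 in any rat library, against 73.0% of the 21718 rows on assembled chromosomes. P4ha1 shares its 0 with all rows of that kind, and the value gives no level for it.

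Ankrd37, Ddit4 and Adm formed a second set, with rat 2 lowest. Ankrd37 stood at 9.14 FPKM (rat 1), 1.68 FPKM (rat 2) and 5.59 FPKM (rat 3), with a mean of 5.47 ± 3.73 (SD, n = 3), on chromosome 16 from 49549526 to 49552416. Rat 1 was 5.43 times rat 2, a wider ratio than in 99.4% of the rows averaging at least 1 FPKM. Ddit4 stood at 5.04, 2.47 and 5.21 in rat 1, rat 2 and rat 3, a mean of 4.24 ± 1.54 (SD, n = 3), on chromosome 20 from 27252272 to 27254371. Rat 1 and rat 3 were nearly level, and rat 3 was 2.11 times rat 2. In the authors' deposited table the bounds of rat 2 lay below those of rat 1 and of rat 3 for both genes, while for Adm they lay below those of rat 1 only.

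Of 15 mTORC1 genes around Ddit4 with a row, 14 reached 1 FPKM and 5 of these were lowest in rat 2, beside 22.6% of all rows. In 0 of the 14 was the highest library at least 2 times the lowest, a count near the 6.01% of all rows. Tsc1 and Tsc2, through which DDIT4 acts on mTORC1, stood at 3.04 ± 0.363 and 3.24 ± 0.414 (SD, n = 3). Atf4, a stress transcription factor, and Eif4ebp1, an mTORC1 substrate, led the list at 78.5 ± 7.62 and 31.9 ± 0.550. Trib3, an ATF4 target, had the largest ratio, 1.87, with 3.57, 1.91 and 2.65 FPKM. Ddit4 is also known as a glucocorticoid-induced gene. Of 12 listed glucocorticoid-responsive genes, 10 were lowest in rat 2, or 83.3% beside the 22.6% of all rows. The share of all rows was 34.5% with median-ratio and 32.7% with upper-quartile scaling, and the count stayed at 10. The median log2 ratio of rat 2 to the gene's mean was -0.45 in the list against 0.06 over all rows. Mt1a and Mt2A, metallothioneins, were the most abundant, and Mt2A had the largest ratio at 2405, 442 and 1217 FPKM. This list was chosen with earlier results of these data known, and glucocorticoid levels were not measured.

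Ndrg1, as deposited, was lowest in neither rat 2 nor rat 3. It stood at 1.76 FPKM (rat 1), 1.90 FPKM (rat 2) and 2.34 FPKM (rat 3), with a mean of 1.998 ± 0.306 (SD, n = 3), on chromosome 7 from 104302037 to 104344842. Rat 3 was 1.33 times rat 1, the narrowest ratio among the members above 0, and the deposited bounds of the 3 libraries overlapped. Its relative Ndrg2, abundant in liver, was at 209, 297 and 217 FPKM, or 92.6 to 156 times Ndrg1 within a library. Ndrg3 was at 1.74 ± 0.0876 (SD, n = 3) and Ndrg4 under 0.2 FPKM in each library, at 0.0588, 0.0822 and 0.154.

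**Figure D2:**
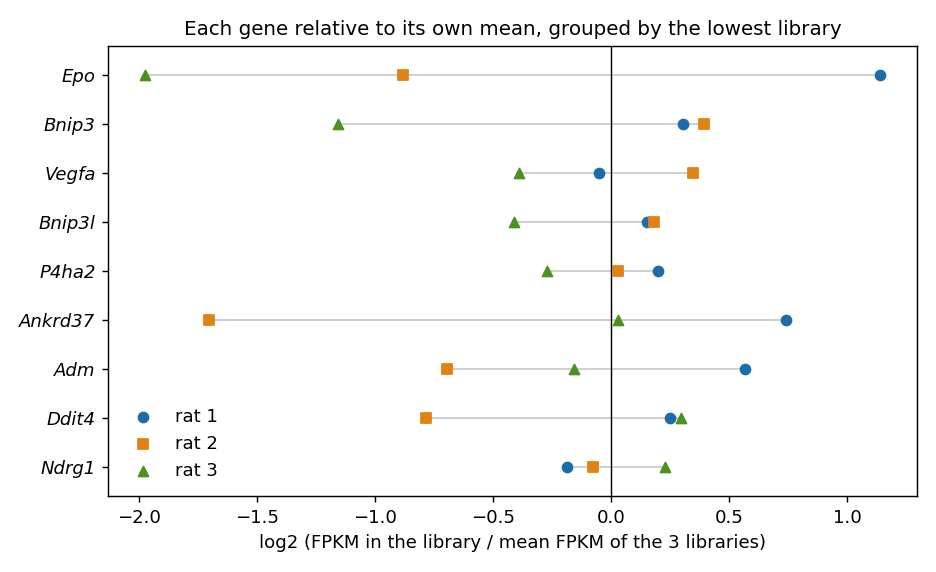
Each effector gene's FPKM in a library divided by its own mean over the 3 rat libraries, on a log2 axis; symbols are libraries. Epo, Bnip3, Vegfa, Bnip3l and P4ha2 have rat 3 at the left, Ankrd37, Adm and Ddit4 have rat 2 there, and Ndrg1 has rat 1, with rat 1 and rat 2 close together.

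Of the 8 members with a mean of at least 1 FPKM, 4 were lowest in rat 3, 3 in rat 2 and 1, Ndrg1, in rat 1, beside the shares of 28.9%, 22.6% and 48.5% over all rows. Epo, below that level, was also lowest in rat 3. The lowest library of 9 members was the same with libraries scaled to a common total or by the upper quartile. With median-ratio scaling Ndrg1 became lowest in rat 2, at 1.84, 1.82 and 2.33. The shares of all rows lowest in rat 3, rat 2 and rat 1 were then 33.2%, 34.5% and 32.3%. The highest library was less firm. As deposited it was rat 1 for 3 of the 8 (P4ha2, Ankrd37 and Adm), where 17.5% of all rows had rat 1 highest. With median-ratio scaling it was rat 1 for 6 of the 8, as Bnip3, Bnip3l and Ddit4 passed from rat 2 or rat 3 to rat 1, beside 31.2% of all rows.

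The members varied more between the rats than most rows. The highest library was at least 2 times the lowest in 4 of the 8 members at 1 FPKM (Bnip3, Ankrd37, Ddit4 and Adm), where 6.01% of 9994 rows met that limit. The share was 7.36% of the rows with a mean of 1 to under 10 FPKM, where 3 of these 4 lie, and 3.92% of those at 10 FPKM or more. The median ratio was 1.89 over the 8 members and 1.24 over all rows. The count rests on single libraries: without rat 2 it was 1, Bnip3 alone, and it was 3 without rat 1 and 3 without rat 3. The share over all rows also dropped, to 2.95% without rat 2, 3.23% without rat 1 and 3.01% without rat 3, since a range over fewer libraries is narrower. No test was made of these counts, since the members were chosen with results of these data known.

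**Figure D3:**
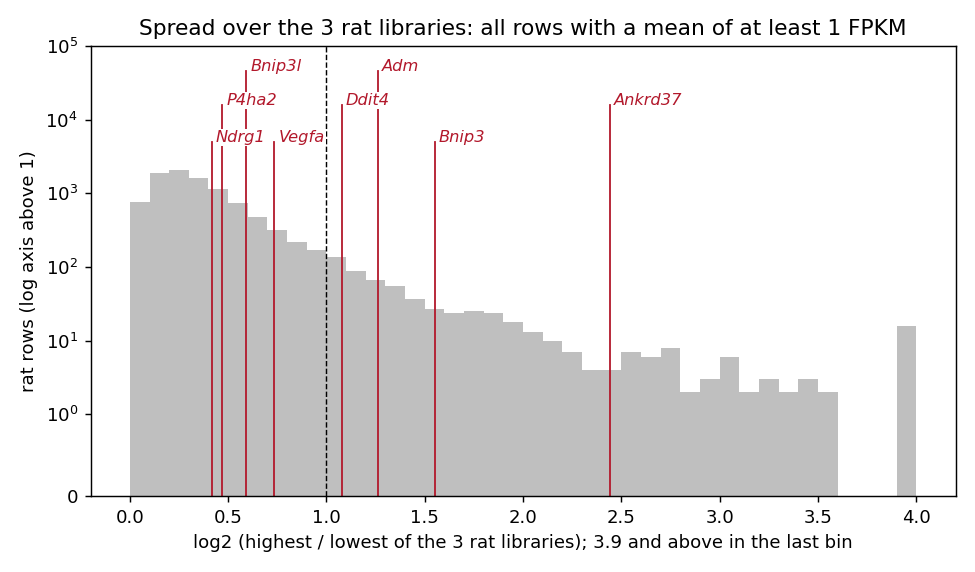
Number of rat rows averaging at least 1 FPKM (log axis above 1) by the log2 ratio of the highest to the lowest of the 3 rat libraries; red lines mark the 8 effector genes and the dashed line a 2-fold ratio. Ndrg1, P4ha2, Bnip3l and Vegfa lie left of the dashed line and Ddit4, Adm, Bnip3 and Ankrd37 right of it.

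The other targets of HIF were more often lowest in rat 3, like Bnip3 and Vegfa, than lowest in rat 2, like Ankrd37. Of 56 listed symbols outside the 10 members, 51 had a row and 38 a mean of at least 1 FPKM. Rat 3 was lowest for 25 of these 38, or 65.8% beside 28.9% of all rows, and rat 2 for 8. The count for rat 3 was 26 or 27 under the other scalings. Rat 3 also had the highest summed markers of Kupffer cells, stellate cells and cholangiocytes, though not of sinusoidal endothelium, and their part in its low values was not tested. Over rat 1, rat 2 and rat 3 the Kupffer markers summed to 186, 196 and 248 FPKM (7 of 8 with a row, Marco and Emr1 at 0), the stellate markers to 15.3, 13.8 and 18.6 (6 of 7) and the cholangiocyte markers to 11.6, 12.8 and 16.6 (4 of 4). The stellate markers disagreed among themselves. Dcn (2.83, 2.93 and 6.11), Des (1.78, 1.81 and 3.27) and Lrat were highest in rat 3. Rgs5 (5.75, 5.60 and 4.90), Col1a1 (1.94, 0.695 and 1.35) and Pdgfrb (2.55, 2.22 and 2.44) were highest in rat 1. Hepatocyte markers summed to 20457, 23122 and 21689, and they differed in order. Ttr, Cps1 and Ass1 were highest in rat 2, as the sum was, whereas Tat, Pck1 and Asgr1 were lowest there. Cyp2e1 was highest in rat 3 and Hnf4a in rat 1. Tat and Pck1 also stand in the glucocorticoid list. The median log2 ratio of rat 3 to the gene's mean was -0.19 in the list and 0.00 over all rows. Tf, transferrin, and Ldha, lactate dehydrogenase, were the most abundant, at 12540 ± 1294 and 1567 ± 79.8 FPKM (SD, n = 3). All 7 glycolytic genes of the list with at least 10 FPKM (Pfkl, Aldoa, Tpi1, Gapdh, Pgk1, Eno1 and Ldha) were lowest in rat 3, a group picked out after the values were seen.

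Of the 38 genes, 8 had a highest library at least 2 times the lowest, beside 6.01% of all rows. Each was highest in rat 1, beside 17.5% of all rows, with 6 lowest in rat 3 and 2 in rat 2, beside 28.9% and 22.6% of all rows. These shares are over all rows at 1 FPKM. Orders were not counted over the rows with a 2-fold range, so the shares are not a like comparison. The share highest in rat 1 was 31.2% with median-ratio scaling. Car12, Egln3, Ppp1r3c, Hmox1 and Ero1l, named after their values were seen, were among the 6. Car12, a carbonic anhydrase, stood at 6.15, 1.76 and 0.991 FPKM. Egln3, an oxygen-sensing prolyl hydroxylase that is itself a HIF target, stood at 3.72, 2.50 and 0.928. Ero1l, an oxidase of the endoplasmic reticulum, was at 28.4, 26.4 and 12.4, an order like that of Bnip3 in that rat 3 alone was low. The other 2 were Igfbp1 and Tgfb3, with the order of Ankrd37 in that rat 2 was lowest. ACGTG stood in a promoter window of 22 of the 46 listed genes that had one, or 47.8%, beside 18.1% of all 27457 genes with a window.

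**Figure D4:**
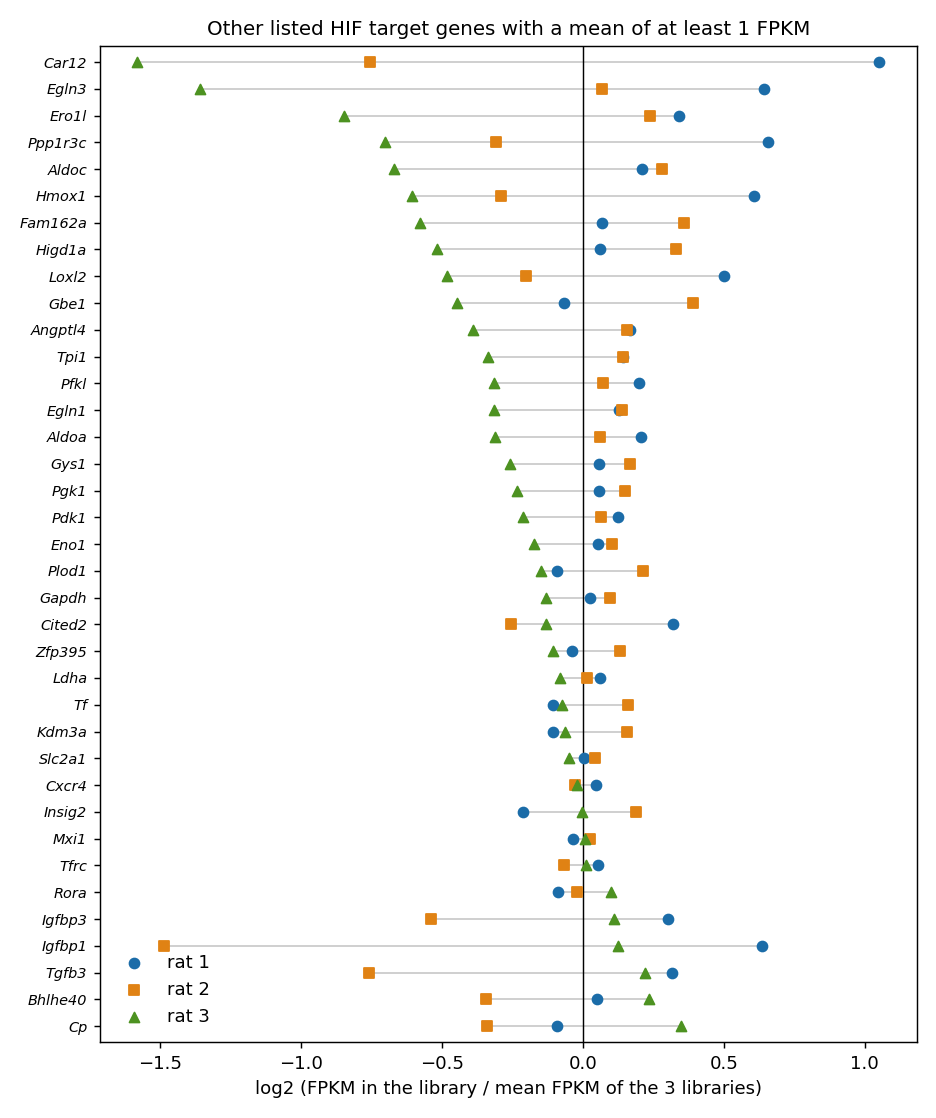
Other listed HIF target genes with a mean of at least 1 FPKM, each library's FPKM divided by the gene's mean over the 3 rat libraries, on a log2 axis; symbols are libraries and genes are sorted by rat 3. Rat 3 is the leftmost symbol for most of the genes, with Car12 and Egln3 among the farthest left.

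Of 13 HIF control genes, 3 of them also in the target list, 11 reached 1 FPKM and 1, Egln3, had a 2-fold range, a share near the 6.01% of all rows. Epas1, which encodes HIF-2 alpha, and Egln2, a prolyl hydroxylase, were the most abundant, and Egln2 stood at 29.2, 37.0 and 36.4 FPKM. Arnt, the partner of the alpha subunits, stood at 13.5, 17.3 and 16.4. The HIF alpha subunits did not share the order of the low rat 3 set as a pair: Hif1a was at 6.92, 9.61 and 9.08 FPKM, lowest in rat 1, and Epas1 at 58.6, 62.1 and 50.0, lowest in rat 3. Transcript levels of these subunits do not measure the protein, which is controlled by its stability.

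For the 5 members with a 2-fold range, the rows with the most similar pattern were found by Euclidean distance of centred log2(FPKM + 1) over the 3 rat libraries, among 8428 or 8429 rows. With 3 libraries such likeness is weak. Nearest to Bnip3 were Vwa1 (distance 0.055), Sulf2 (0.078) and Gpam (0.138), and Gpam stood at 42.4, 49.9 and 17.4 FPKM. Nearest to Ankrd37 were Igfbp1 (0.191), at 97.5, 22.4 and 68.4 FPKM, then Miox (0.222) and Casp12 (0.223). Nearest to Ddit4 were Slc43a3, Trmt61a and Crip2, all within 0.060. Nearest to Adm were Nek6, Fer1l5 and Ugt2a3, all within 0.055. Adding 1 narrows the spread of low values, so a small distance is not an equal fold range. Ratios of highest to lowest library were 1.81, 2.14 and 1.86 for these 3, against 2.40 for Adm. For Slc43a3, Trmt61a and Crip2 they were 1.92, 1.99 and 1.71, against 2.11 for Ddit4. Nearest to Epo, whose low level leaves a small spread on this scale, were Spsb1, Mro and Edem1, with Edem1 at 355, 236 and 216 FPKM.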

How the data were processed

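Liver polyadenylated RNA was sequenced in 3 rat and 3 naked mole rat libraries. The authors deposited FPKM per gene with lower and upper bounds, in the Cufflinks layout per the file headers. Cufflinks 2.1.1, Picard 1.137, TopHat2 2.0.9 and Bowtie2 2.1.0 are listed in the submitters' processing notes. Neither build nor annotation is given in the sources used here. Loci therefore stand as deposited and were not joined to the GRCr8 promoters. Libraries were grouped by their titles. Rows were matched by symbol without regard to case, albumin with the status HIDATA was treated as missing in 2 rat libraries, and FPKM was used as deposited. Python 3.11.15, numpy 2.4.6 and pandas 2.3.3 gave means, SD, orders, ratios of highest to lowest library and log2(FPKM + 1) distances, with a minimum mean of 1 FPKM for counts over rows. Counts of rows are descriptive and no test was run: a limma comparison of the species, planned for members in both species, had no member to compare. The scaling step was tested on simulated data. Alternatives were 3 scalings, a pseudocount of 0.1, no filter on low values, and leaving out each rat library. All members are named. Pathway genes are named by a rule that takes, per list, the 2 most abundant, the gene of largest ratio and direct partners of a member; others are marked as named after their values were seen or are given as pathway partners. Some genes counted in the lists are not reported here by name, also where the rule would name them. The members and lists were chosen with earlier results of these data known.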

Additional observations from a re-analysis of the deposited data

How the results depend on the processing

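The lowest library of each member and the count of members with a 2-fold range (4 of 8) did not change with the scaling, except that with median-ratio scaling 0 members were lowest in rat 1. Of all rows, 32.3% were lowest in rat 1 with that scaling, against 48.5% as deposited. The share of all rows lowest in rat 2 was 34.5% with median-ratio and 32.7% with upper-quartile scaling, against 22.6% as deposited. The number highest in rat 1 was 6 with median-ratio and 6 with upper-quartile scaling, and the numbers highest in rat 2 and in rat 3 were then 1 and 1. The share of all rows highest in rat 1 rose as well, from 17.5% as deposited to 31.2% with median-ratio and 28.3% with upper-quartile scaling. Scaling to a common total gave the counts of the deposited values. Leaving out 1 library gave 1 to 3 members with a 2-fold range, the lowest without rat 2, while the share of all rows was 2.95% to 3.23%, against 6.01% with all libraries. Without rat 3 the Bnip3 ratio was 1.06, without rat 2 the Ankrd37 ratio was 1.63 and that of Ddit4 1.03, and without rat 1 the Adm ratio was 1.45 and that of Epo 2.13. With no filter on low values 17.2% of rows had a 2-fold range. The median SD of the 8 members was 0.40 with a pseudocount of 1 and 0.48 with 0.1. No paired analysis was possible because the labels give no pairing of libraries. The species fit and its alternatives were not run because no member had a row in the naked mole rat tables. FPKM gives no counts, so depth limits the values under 1 FPKM, those of Epo, to an unknown extent.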
